A study of Rattus norvegicus with 42 samples.

Results

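The Rgs genes encode regulators of G-protein signalling, and 10 of them were followed here: Rgs2, Rgs3, Rgs4, Rgs7, Rgs8, Rgs9, Rgs10, Rgs12, Rgs14 and Rgs16. The members were taken by gene symbol from a table of 15516 RefSeq transcripts, and each symbol matched 1 transcript. The group was chosen by measured values of these animals, since Rgs14 was lower after phenobarbital (PB) than after levetiracetam (LEV), so that difference is given below as a description and not as a test. The table holds 17 numbered Rgs genes in all, and those outside the group are described with the rest of the G-protein pathway.

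A receptor coupled to a heterotrimeric G protein makes the G alpha subunit exchange GDP for GTP, which frees it from the G beta gamma dimer so that both can act on effectors such as adenylyl cyclase, phospholipase C beta and GIRK potassium channels. RGS proteins bind the active alpha subunit through a shared RGS domain and speed up its hydrolysis of GTP, which shortens the signal. The R4 subfamily is mostly small proteins with little beside this domain, the R7 subfamily works as dimers with the G beta 5 subunit, and the R12 subfamily includes the large scaffolds Rgs12 and Rgs14, which also bind Ras and Rap proteins. In the rodent hippocampus RGS14 is known as a protein of CA2 pyramidal neurons, where it restrains synaptic plasticity.

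The samples were hippocampi of male Sprague Dawley rat pups, each from 1 animal given a single intraperitoneal injection on postnatal day 7 (P7) and collected 72 h later, at P10. The vehicle group (VEH) received saline, the PB group 75 mg/kg of the barbiturate PB and the LEV group 200 mg/kg of LEV, an antiseizure drug that binds the synaptic vesicle protein SV2A. All pups, controls included, were killed with a barbiturate, pentobarbital, and perfused before dissection. One VEH animal marked as excluded by the submitters was left out, which left 13 VEH, 14 PB and 14 LEV animals. The study took 1 pup per litter for each treatment and bought animals in separate orders, so each library stands for 1 animal. Which animals shared a litter is not given in the sources used here, so the tests do not pair them.

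The table gives estimated read counts per transcript before normalization, with totals of 9499492 to 14488134 in VEH, 9586794 to 13140913 in PB and 10112050 to 12482915 in LEV animals. Levels below are normalized counts, that is counts scaled by the trimmed mean of M-values (TMM) library size to a common size of 11405252, and they are compared between animals for 1 transcript and never between transcripts. Differences are log2 fold changes from edgeR's quasi-likelihood model with the 3 groups and the form of the sample code as terms. The codes come in a two-letter form (animals 1 to 6 of each group) and a one-letter form (animals 7 to 14), and this form served as the batch. A transcript passed at an adjusted p under 0.05 (Benjamini-Hochberg over 13062 transcripts that passed the filter on low counts), and all 10 members passed that filter. Of 9 marker transcripts of hippocampal neurons such as Prox1 and Zbtb20, none was at 0 in every animal of a group. Their summed normalized counts were 9230 to 12031 in VEH, 9124 to 10036 in PB and 8734 to 10365 in LEV animals. Marker lists of striatum, thalamus and choroid plexus, described below, had no such transcript at 0 either, so this alone does not establish the tissue.

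After PB, 1 of the 10 members passed the test against VEH, which was Rgs14, and it was lower. None was higher, 9 did not pass, and 3 had an unadjusted p under 0.05 (Rgs14, Rgs3 and Rgs10). Of all 13062 transcripts tested, 704 passed in this comparison (5.39%), with 1.93% higher and 3.46% lower, and 20.2% had an unadjusted p under 0.05. The share of members that passed was 10% and rests on the transcript for which the group was picked. The median log2 fold change of the members was 0.01, beside 0.00 over all transcripts. No member reached adjusted p under 0.05 together with a log2 change of at least 0.32, the size limit of the study, which 0.605% of all transcripts met (0.345% higher and 0.26% lower).

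Rgs14 is a scaffold with an RGS domain, Ras- and Rap-binding domains and a GoLoco motif that holds inactive G alpha i. Its transcript lies at chr17:9777925-9792008 (rn6) and overlaps no other transcript of the table. In VEH animals its normalized count had a lowest value of 589, a median of 685 and a highest value of 744. In PB animals these values were 452, 574 and 662, and in LEV animals they were 635, 703 and 786. The PB animals lay lowest, with 7 of 14 below every VEH animal and 8 of 13 VEH animals above every PB animal, so the ranges overlapped in the middle. The mean was 674 ± 52.3 (SD, n = 13) in VEH, 561 ± 71.4 (SD, n = 14) in PB and 709 ± 49.8 (SD, n = 14) in LEV.

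Between PB and VEH the log2 fold change of Rgs14 was -0.26 (SE 0.05, 95% interval -0.37 to -0.16), a change of -16.8%. In edgeR's quasi-likelihood test this had p = 1.04e-05 and an adjusted p of 0.00272, rank 50 by p among all transcripts tested. All 14 PB animals were under the mean of the VEH animals with their form of code. This test shares its PB animals with the comparison for which Rgs14 was picked, so it is not independent of the choice. In bulk tissue, fewer cells that express a gene and less of its RNA per cell cannot be told apart.

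**Figure D1:**
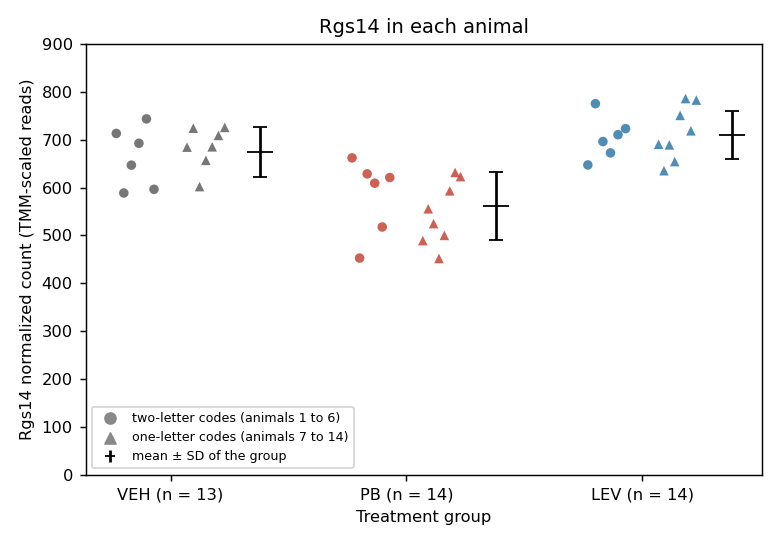
Normalized count of Rgs14 in each animal (vertical axis, TMM-scaled reads, from 0) by treatment group, with circles for two-letter and triangles for one-letter codes and bars for the mean ± SD of the group. The PB animals lie between 452 and 662, below most VEH (589 to 744) and LEV (635 to 786) animals.

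Between PB and LEV, the comparison used to pick it, the log2 fold change of Rgs14 was -0.34 (SE 0.05, 95% interval -0.44 to -0.23), and each of the 14 PB animals was under the mean of the LEV animals with its form of code. Of the PB animals 13 lay below every LEV animal, and 11 LEV animals lay above every PB animal. A call of Rgs14 in this comparison would follow from its choice, so nothing is read from one. As background, 4.45% of all transcripts passed there (1.67% higher and 2.78% lower), 19.6% had an unadjusted p under 0.05, and 0.582% passed with a log2 change of at least 0.32 (0.283% higher and 0.299% lower). The log2 fold changes of the other 9 members between PB and LEV ran from -0.08 (Rgs10) to 0.15 (Rgs9).

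Rgs14 had lower values after PB in both code forms, with a larger estimate in the one-letter form. With two-letter codes the mean was 664 ± 63.4 (SD, n = 6) in VEH and 582 ± 79.6 (SD, n = 6) in PB, and the log2 fold change was -0.19 (SE 0.08). With one-letter codes the mean was 684 ± 43.6 (SD, n = 7) in VEH and 546 ± 65.7 (SD, n = 8) in PB, and the log2 fold change was -0.32 (SE 0.07). The PB animals were thus lower in either form, and the 2 forms did not differ detectably in this fold change (edgeR interaction, p = 0.216, adjusted p = 0.686). In a fit to the two-letter animals alone the log2 fold change was -0.19 with an adjusted p of 0.343, and in the one-letter animals alone it was -0.32 with an adjusted p of 0.0104. Rgs14 kept its call when any 1 animal was left out, with log2 fold changes from -0.28 to -0.24. The level of Rgs14 itself was alike in both forms, at a log2 difference of -0.01 (SE 0.04).

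None of the tested transcripts nearest to Rgs14 on chromosome 17 passed between PB and VEH. Lman2, the nearest tested transcript at a distance of 6128 bases, had a log2 fold change of -0.02 (SE 0.04) between PB and VEH with an adjusted p of 0.775 in edgeR's test. The others were Pfn3, F12, Mxd3 and Prelid1.

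The other R12 members had lower estimates after PB and did not pass. Rgs10, a small RGS protein found in microglia and neurons, ran from 423 (median 469) to 751 in VEH, from 389.7 (median 457) to 533 in PB and from 409.7 (median 469.8) to 606 in LEV animals. Animal 9 of the VEH group stood far above the rest of its group, and the 3 ranges overlapped. The log2 fold change between PB and VEH was -0.14 (SE 0.07), with 11 of 14 PB animals under the mean of the VEH animals with their form of code and an adjusted p of 0.209 in edgeR's quasi-likelihood test. Without VEH animal 9 it was -0.08. Summed microglia markers (10 transcripts, none at 0) were 2746 to 3274 in VEH, 2393 to 3255 in PB and 2523 to 3318 in LEV animals, and 0 of the 10 passed in any comparison. Rgs12, the largest of the R12 scaffolds, ran from 772 (median 845) to 905 in VEH, from 731 (median 823) to 919.6 in PB and from 725 (median 810.1) to 911 in LEV animals. Its ranges were nearly the same in the 3 groups, and its log2 fold change between PB and VEH was -0.06 (SE 0.03, adjusted p = 0.325).

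Among the R4 members, Rgs3 had the highest estimate after PB. Rgs3, which acts on G alpha i and G alpha q, ran from 178 (median 276) to 366 in VEH, from 239.6 (median 324) to 389.5 in PB and from 187 (median 293) to 479 in LEV animals. The PB animals lay in the upper part of the VEH range, with 12 of 14 above the VEH mean of their code form, while the LEV animals spread over the widest range. The log2 fold change between PB and VEH was 0.28 (SE 0.11, 95% interval 0.06 to 0.50), with an unadjusted p of 0.0141 and an adjusted p of 0.124 in edgeR's quasi-likelihood test. It did not pass.

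Rgs4, which limits G alpha i and G alpha q signals in cortical and hippocampal neurons, ran from 1525 (median 2617) to 4127 in VEH, from 1556 (median 2897) to 4161 in PB and from 2096 (median 2641) to 4232 in LEV animals. Within each group the animals differed far more than the group medians did. The log2 fold change between PB and VEH was 0.10 (SE 0.13). Rgs2, which is selective for G alpha q, ran from 106 (median 130.2) to 172 in VEH, from 96.0 (median 134) to 182 in PB and from 109 (median 141) to 174 in LEV animals. These ranges almost coincided, and the log2 fold change between PB and VEH was 0.01 (SE 0.08). The Rgs2 transcript overlaps that of Uchl5, and as the library kit does not mark strand, reads in the overlap could come from either gene.

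Rgs8, a member best known from cerebellar Purkinje cells, ran from 545 (median 686) to 871 in VEH, from 517 (median 689) to 793 in PB and from 581 (median 694) to 787 in LEV animals, and its log2 fold change between PB and VEH was -0.05 (SE 0.06). Its 3 medians were close together and its ranges overlapped. Rgs16 was measured with few reads, from 8.33 (median 14.5) to 28.2 in VEH, from 12.3 (median 15.6) to 30.5 in PB and from 4.59 (median 16.7) to 40.7 in LEV animals. The widest spread was in LEV, and the log2 fold change between PB and VEH of 0.10 had an SE of 0.22. Its 95% interval (-0.34 to 0.54) leaves room for a fall or for a rise of up to 1.46-fold. Rgs8 and Rgs16 lie 40404 bases apart on chromosome 13, which also holds Rgs2, Rgs4 and Rgs7.

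The R7 members, whose proteins pair with G beta 5, had estimates near 0 or with wide errors. Rgs7 ran from 936 (median 1042) to 1196 in VEH, from 829.9 (median 1055) to 1199 in PB and from 913 (median 1049.6) to 1138 in LEV animals. The ranges overlapped over most of their width, with 2 PB animals below every VEH animal, and the log2 fold change between PB and VEH was 0.00 (SE 0.04, 95% interval -0.07 to 0.08). Rgs9, known from retina and striatum, ran from 26.7 (median 65.6) to 85.3 in VEH, from 48.0 (median 63.9) to 90.2 in PB and from 27.8 (median 64.8) to 80.4 in LEV animals. The low end of VEH and LEV was missing in PB, and the log2 fold change between PB and VEH was 0.13 (SE 0.15). Summed striatum markers (14 transcripts) were 1043 to 1494 in VEH, 1045 to 1675 in PB and 1155 to 1757 in LEV animals, and 0 of the 14 passed in any comparison. The part of other tissue in the Rgs9 and Rgs10 values was not tested.

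**Figure D2:**
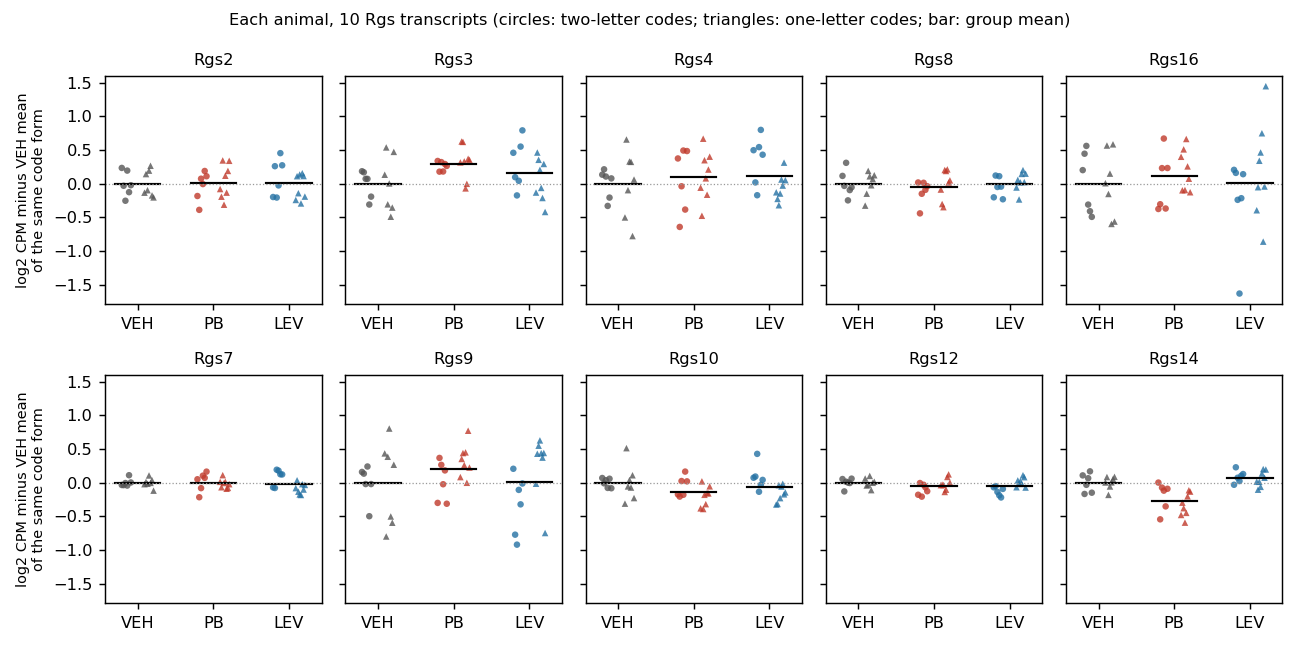
Each animal's log2 CPM (prior count 2) of the 10 Rgs transcripts, minus the VEH mean of its code form (vertical axis), by treatment group, with circles for two-letter codes, triangles for one-letter codes and bars for group means. Rgs14 lies below 0 in all 14 PB animals, while Rgs4, Rgs9 and Rgs16 spread widely in each group.

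Single animals recurred at the ends of the ranges. PB animal 2 had the lowest value of the PB group in 5 members (Rgs2, Rgs4, Rgs7, Rgs8 and Rgs10) and the highest in Rgs9. VEH animal 9 had the highest value of its group in Rgs3, Rgs4 and Rgs10 and the lowest in Rgs9. The coefficient of variation within VEH ran from 4.55% for Rgs12 to 38.1% for Rgs16.

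After LEV, 0 of the 10 members passed against VEH, and 0 had an unadjusted p under 0.05 in edgeR's quasi-likelihood test. DESeq2 and limma-trend also called 0 members. Of all transcripts tested, 0.00766% passed and 5.84% had an unadjusted p under 0.05, so few calls of any kind were made. Adjusted p-values of the members ran from 0.869 to 0.994, and 5 estimates were above and 5 below 0. This comparison shares its VEH animals with that of PB and VEH. It also shares its LEV animals with the comparison for which Rgs14 was picked, so its Rgs14 estimate is not independent of the choice. Rgs14 had a log2 fold change of 0.07 (SE 0.05, 95% interval -0.03 to 0.18), which leaves room for a rise of up to 1.13-fold. Rgs3 had the largest estimate, 0.17 (SE 0.11), and Rgs12 the smallest p, with -0.05 (SE 0.03, unadjusted p = 0.109).

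**Figure D3:**
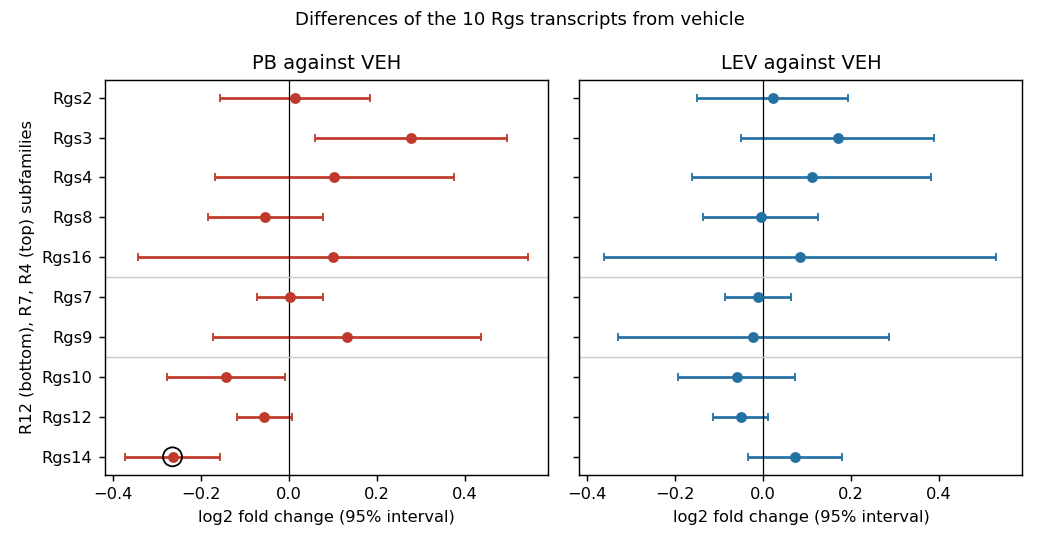
Log2 fold change with its 95% interval (horizontal axis) of the 10 Rgs transcripts between PB and VEH (left) and between LEV and VEH (right), ordered by subfamily from R4 at the top through R7 to R12, with a ring around the transcript of adjusted p under 0.05. Rgs14 after PB, at -0.26, carries the only ring, and all LEV intervals include 0.

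In the LEV animals the signs of most members' differences were not the same in both code forms. With VEH as reference, 8 of the 10 members had estimates of opposite sign in the 2 code forms, the exceptions being Rgs3 and Rgs14. The share of all transcripts with opposite signs was not worked out. Counts of signs are therefore not read as a result about the members. Rgs7, for example, had a log2 fold change of 0.08 (SE 0.05) with two-letter codes and -0.09 (SE 0.05) with one-letter codes (edgeR interaction, unadjusted p = 0.0235, adjusted p = 0.300). Rgs12 and Rgs10 also had an unadjusted interaction p under 0.05 (0.0308 and 0.0465), and 0 of the 10 passed after adjustment. Over all transcripts 0.842% passed this interaction test and 12.8% had an unadjusted p under 0.05. Between PB and VEH only Rgs2 and Rgs7 had opposite signs, 0 members passed and 0 had an unadjusted interaction p under 0.05, where 0.0689% of all transcripts passed and 11.1% had an unadjusted p under 0.05. For PB and LEV 6 members had opposite signs and 0 passed, where 0.023% of all transcripts did.

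**Figure D4:**
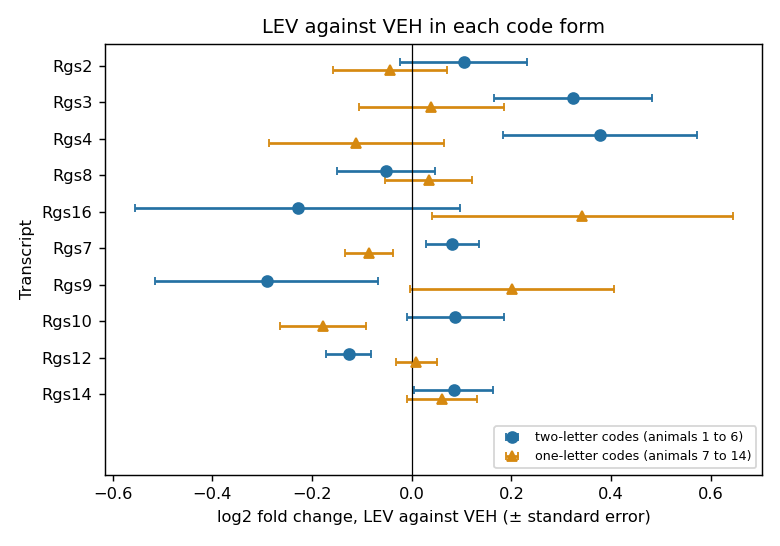
Log2 fold change between LEV and VEH (horizontal axis, ± standard error) of the 10 Rgs transcripts, with blue circles for the two-letter and orange triangles for the one-letter animals. The symbols fall on opposite sides of 0 for 8 transcripts and on the same side for Rgs3 and Rgs14.

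The code form itself went with the level of some members. Rgs7 was higher in one-letter animals (mean 1084 against 988, log2 difference 0.13, SE 0.03) with an adjusted p of 0.000734 in edgeR's quasi-likelihood test. Rgs12 was higher as well (843 against 802, log2 difference 0.07, SE 0.03, adjusted p = 0.0242). The other 8 members did not pass, where 30.2% of all transcripts did. What the code form stands for, such as an animal order or a sequencing run, is not given in the sources used here.

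The other genes of the pathway passed after PB at about the share of all transcripts. Of 75 listed genes, 67 were in the table, and 70 of their 76 transcripts were tested. Against VEH, 4 were lower and 0 higher, or 5.71% beside 5.39% of all transcripts (3.46% lower and 1.93% higher). The median log2 fold change of the lists was -0.01, beside 0.00 over all transcripts. These lists were drawn up with earlier results of the same data known.

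Among the G alpha subunits 1 of 15 transcripts passed. Gnas, which encodes the stimulatory subunit G alpha s, had a median of 9819 in VEH (9299 to 11446), 9533 in PB (8285 to 10139) and 10362 in LEV (9692 to 11013) for its transcript with the most counts. Its groups overlapped, and the log2 fold change between PB and VEH was -0.11 (SE 0.03), with 11 of 14 PB animals under the mean of the VEH animals with their form of code and an adjusted p of 0.0256 in edgeR's test. It was -0.03 (SE 0.04) in two-letter and -0.18 (SE 0.04) in one-letter animals (edgeR interaction, unadjusted p = 0.0149, adjusted p = 0.323). The call was kept in 13 of 17 alternative settings and was lost without VEH animal 11 (adjusted p = 0.0575) or PB animal 7 (0.0545). The inhibitory subunits on which RGS proteins act had log2 fold changes of -0.02 (SE 0.03) for Gnai2, 0.04 (SE 0.04) for Gnai1 and Gnai3, and 0.01 (SE 0.05) for Gnao1, the alpha o subunit. None of these passed, nor did Gnaq (0.09, SE 0.07).

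Of 15 transcripts of beta and gamma subunits, 2 passed. Gng7, a gamma subunit, had a median of 2589 in VEH (2368 to 2911), 2224 in PB (2066 to 2647) and 2431 in LEV (1954 to 2872). All 14 PB animals were under that VEH mean, and the log2 fold change was -0.21 (SE 0.04, adjusted p = 0.00158). After LEV, Gng7 had a log2 fold change of -0.14 (SE 0.04) that did not pass (adjusted p = 0.525), with -0.27 (SE 0.05) in two-letter and -0.03 (SE 0.05) in one-letter animals. Gng3, a neuronal gamma subunit, had a median of 3916 in VEH (3656 to 4431), 3564 in PB (2672 to 4219) and 3939 in LEV (3593 to 4564). Here 12 of 14 PB animals were below, and the log2 fold change was -0.17 (SE 0.04, adjusted p = 0.0159). It was -0.07 (SE 0.06) in two-letter and -0.26 (SE 0.06) in one-letter animals (edgeR interaction, unadjusted p = 0.0335, adjusted p = 0.405), and the call was kept in 14 of 18 alternative settings. Gnb5, the partner of the R7 proteins, had a log2 fold change of -0.09 (SE 0.06) and did not pass.

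Gpr158, an orphan receptor that binds R7 proteins at the membrane, was the pathway transcript with the largest change that passed. Its median was 1589 in VEH (1213 to 1937), 1370.4 in PB (863 to 1536) and 1536 in LEV (1377 to 1832), and the PB range reached lowest. All 14 PB animals were under that VEH mean, with a log2 fold change of -0.26 (SE 0.06) and an adjusted p of 0.00592. Rgs7bp, the R7 membrane anchor, had -0.13 (SE 0.09) and did not pass.

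No transcript of the remaining lists passed after PB: 0 of 5 other Rgs genes, 0 of 8 transcripts of RGS homology kinases, 0 of 7 of GoLoco and related regulators, 0 of 10 of adenylyl cyclases, 0 of 4 of phospholipase C beta and 0 of 4 of GIRK channels. Rgs5, a marker of pericytes that lies 51985 bases from Rgs4, had the largest estimate of the other Rgs genes, -0.21 (SE 0.09, adjusted p = 0.180). After LEV 0 of the 70 transcripts passed. In the comparison of PB with LEV, 4 passed, or 5.71% beside 4.45% of all transcripts. These were Gnas (-0.15), Gng3 (-0.20) and Gpr158 (-0.22), lower after PB, and Gpsm1 (0.15), a GoLoco regulator, higher after PB. The call of Gpsm1 was kept in 8 of 18 alternative settings and in 16 of 41 fits with 1 animal left out.

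**Figure D5:**
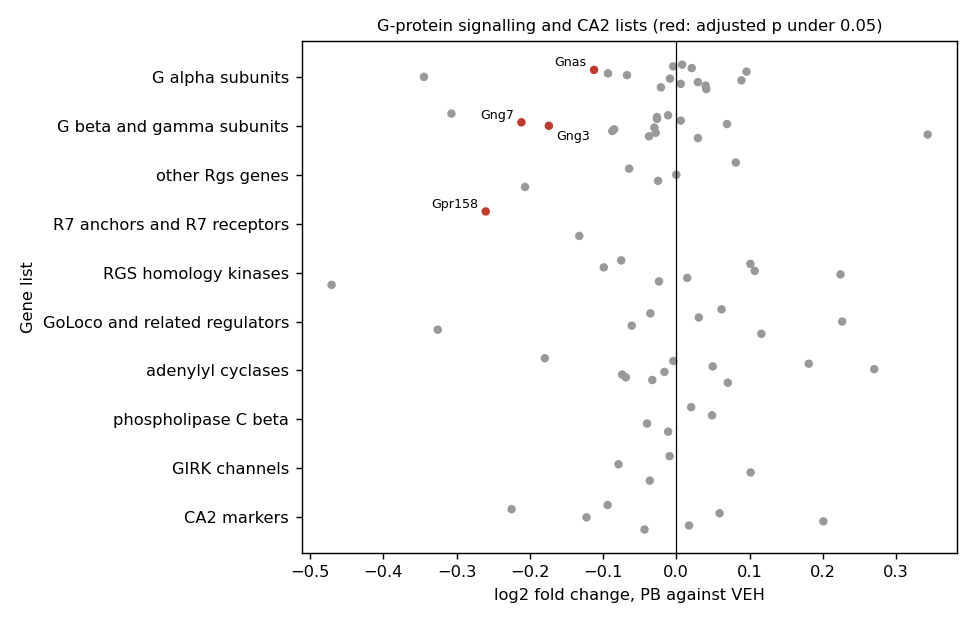
Log2 fold change between PB and VEH (horizontal axis) of each tested transcript of the G-protein pathway lists and of CA2 markers (rows), in red where the adjusted p was under 0.05. The 4 red points, all left of 0, are Gnas, Gng3, Gng7 and Gpr158.

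Cell type markers were read beside the fall of Rgs14. Of 7 tested CA2 marker transcripts 0 passed between PB and VEH, where 5.39% of all transcripts did. Their log2 fold changes ran from -0.22 to 0.20, with 4 below and 3 above 0. Among them were Pcp4 (-0.04, SE 0.08), Amigo2 (0.02, SE 0.06) and Necab2 (-0.12, SE 0.04, adjusted p = 0.0890 in edgeR's test). Whether the part of CA2 cells differed was not tested. Summed CA2 markers were 4827 to 5639 in VEH, 4445 to 6029 in PB and 4759 to 6580 in LEV animals, and no CA2 marker transcript was at 0 in every animal of a group. Of hippocampal neuron markers 0 of 9 passed between PB and VEH.

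Markers of neighbouring tissue moved with PB in part. Skeletal muscle markers were lower, with 4 of 5 tested transcripts past the test, where 3.46% of all transcripts passed as lower. These 4 were Acta1, Atp2a1, Myh4 and Pvalb, the last also a marker of interneurons. The muscle sum over 19 transcripts was 203 to 590.2 in VEH, 146 to 371 in PB and 212 to 746 in LEV animals. Of the 19, 5 were at 0 in all PB animals. In two-letter animals the sum was 425 to 590 in VEH and 189 to 371 in PB. In one-letter animals the sum was 203 to 307 in VEH and 146 to 305 in PB, so most of the fall lay in the two-letter form. With the muscle level as a covariate, chosen after seeing the data, Rgs14 had a log2 fold change of -0.27 (SE 0.07, adjusted p = 0.0366), and 1 of the 4 pathway transcripts still passed, Gng7 (-0.20). The other 3 kept their direction, with log2 fold changes of -0.24 (SE 0.08) for Gpr158, -0.16 (SE 0.06) for Gng3 and -0.09 (SE 0.04) for Gnas. Without the covariate Rgs14 had a log2 fold change of -0.26 (SE 0.05). The muscle sum includes Pvalb, so this covariate is not a measure of muscle alone. Thalamus markers had 2 of 7 tested transcripts higher after PB, Tcf7l2 (0.35, SE 0.11) and Prkcd (0.35, SE 0.10), while their sum was 1725 to 2101 in VEH, 1753 to 2094 in PB and 1845 to 2167 in LEV animals. Gbx2 had a median of 0 in each group. Choroid plexus markers varied most, with sums of 133 to 53296 in VEH, 163 to 84510.0 in PB and 113 to 60936 in LEV animals and 0 of 9 past the test. With the choroid plexus level as a covariate, also chosen after seeing the data, Rgs14 had a log2 fold change of -0.27 (SE 0.05, adjusted p = 0.00228). The part of such tissue in the Rgs14 result was not tested.

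The transcripts that varied most like Rgs14 over the 41 animals were Ndrg4 (Pearson r = 0.83), Atp6v0d1 (r = 0.82), Rab3a (r = 0.82), Syp (r = 0.81) and Uchl1 (r = 0.81), after removal of the code-form means. These values describe points that share libraries and treatment groups, and the median r over all transcripts was -0.01. Treatment means were left in, so this choice favoured transcripts that, like Rgs14, were lower after PB. The log2 fold changes of the 5 against VEH were -0.24 (SE 0.04), -0.20 (SE 0.04), -0.24 (SE 0.05), -0.21 (SE 0.04) and -0.15 (SE 0.03) in that order. Nothing further is read from their direction. With the means of each group and code form removed, their r fell to between 0.56 and 0.66, and none of them was then among the first 5. Among the other members the r with Rgs14 ran from -0.38 (Rgs9) to 0.37 (Rgs10), so no member was among the transcripts most like Rgs14.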

How the data were processed

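RNA sequencing libraries of hippocampus, 1 per animal, were prepared with a kit that does not mark strand. Per the methods of the study, reads were trimmed and filtered by the authors, mapped to rn6 with STAR 2.7.3a and quantified per RefSeq transcript with Partek E/M. The deposited values are these estimated counts before normalization, of which 13.7% were not whole (0% of the members' counts), and they were rounded here. A deposited table of the authors' comparisons (p-values, false discovery rates, ratios, fold changes and group means) was not used.

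Counts were analysed in R 4.3.3 with edgeR 4.0.16: TMM, filterByExpr by group, and glmQLFit and glmQLFTest on all transcripts, with code form as an additive term. SEs were taken from the fold change and its F statistic. The script was tested on simulated counts. DESeq2 1.42.0 and limma 3.58.1 served as alternatives, with other filters, batch terms and sets of animals, and each animal left out in turn. Covariates for muscle and choroid plexus and the refits of the pathway lists were added after seeing the data.

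The members and all lists were chosen with earlier results of these data known, and 1 further list of signalling partners was left out of all counts and is not reported here. Named were all members, pathway transcripts that passed (in PB against LEV at most the 10 with the smallest p), the 5 transcripts most like Rgs14, and markers read beside a member. Others (Gnai1, Gnai2, Gnai3, Gnao1, Gnaq, Gnb5, Rgs7bp, Rgs5, the CA2 markers and the neighbours of Rgs14) were chosen after their values were seen. Immediate early genes were listed too, and 0 of 11 passed in either drug against VEH. With VEH as reference, 10 of the 11 were above 0 after LEV (median log2 fold change 0.17) and 6 after PB (median 0.03). Between PB and LEV 1 (Arc) passed and was lower in PB, where 4.45% of all transcripts passed, and 10 of the 11 were below 0. The share of all transcripts above or below 0 was not worked out, so these counts of signs are not read as a result.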

Additional observations from a re-analysis of the deposited data

Results flagged for a closer look

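The VEH animal that the submitters marked as excluded (animal 7) is set here beside the other VEH animals. Its normalized Rgs3 count was 547, above the highest of the other 13 VEH animals (366). Its normalized Rgs12 count was 1299.8, above their highest of 904. Rgs7 (739), Rgs10 (392.4), Rgs14 (538) and Rgs16 (3.14) lay below the lowest of the other VEH animals. In all, 6 of the 10 members fell outside the range of their group. The share of all transcripts outside that range was not worked out, so this count is not read as a result about the members. With this animal kept, Rgs14 between PB and VEH had a log2 fold change of -0.24 (SE 0.06) and an adjusted p of 0.0107 in edgeR's quasi-likelihood test. Per the methods of the study it was excluded for a read coverage unlike that of the other libraries.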

How the results depend on the processing

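Over 18 alternative settings and 41 fits that each left out 1 animal, 0 members other than Rgs14 passed in any comparison. Rgs14 between PB and VEH passed in 17 of the 18 (log2 fold changes -0.32 to -0.19) and in all 41 (adjusted p 0.00151 to 0.00629). In the two-letter animals alone 0 members passed between PB and VEH, where Rgs14 had a log2 fold change of -0.19. Between PB and LEV its log2 fold change in these animals was -0.28. These fits hold fewer animals. Of 40 same-numbered pairs of animals, 10 had a correlation of deviations above 0.1, with all pairs from -0.33 to 0.33. By this measure 3 of 41 animals were most like their own number. Whether the numbers mark litters cannot be told from these values, and the main test ignores any such pairing. With the replicate number as a block Rgs14 had -0.26 between PB and VEH (adjusted p = 0.00528 in edgeR's test). With this block 1 member passed between PB and VEH and 0 between LEV and VEH. Calls of Rgs14 between PB and LEV would follow from its choice and are not counted here. Its calls between PB and VEH share their PB animals with that choice, so their counts are not independent of it.

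Of the pathway transcripts, 4 passed between PB and VEH, with 1 in the two-letter animals alone and 1 with the muscle covariate (Gng7 in both), 3 with the replicate block and 3 to 6 with 1 animal left out. Between LEV and VEH 0 passed, with 1 after batch subtraction and DESeq2 (Gng7), 3 in the two-letter animals alone (Gnaq, Gna13 and Gng7, all lower) and 0 with any 1 animal left out. Between PB and LEV 4 passed, with 0 in either code form alone and with the muscle covariate, and 3 to 5 with 1 animal left out, where Gpsm1 kept its call in 16 of 41 fits. The cause was not tested. Over all transcripts, 704 passed between PB and VEH, with 64 (two-letter animals alone) to 1087 (batch subtraction and DESeq2) under the 18 alternatives. Between LEV and VEH 1 passed, with 0 to 346 (two-letter animals alone), and between PB and LEV 581, with 58 (muscle covariate) to 1090 (batch subtraction and DESeq2).

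Of 537 log2 fold changes of members under the 18 alternatives 29 changed sign, 12 of them by more than 1 SE of the reported value. Between LEV and VEH these were Rgs7 (0.0871), Rgs10 (0.0928) and Rgs16 (-0.22) in the two-letter animals alone and Rgs4 (-0.11), Rgs9 (0.20) and Rgs12 (0.00837) in the one-letter animals alone. Between PB and LEV they were Rgs3 (-0.0737) and Rgs7 (-0.0654) in the two-letter animals, Rgs2 (0.0912) and Rgs4 (0.21) in the one-letter animals, and Rgs2 (0.0784) and Rgs10 (0.0317) with the muscle covariate. Pathway transcripts changed sign in the same way for Gnas (-0.0383) and Gng3 (-0.0692, both LEV and VEH, one-letter) and Gng7 (0.0330, PB and LEV, two-letter). Of the 5 transcripts most like Rgs14, 3 remained among the first 5 by Spearman correlation and 0 with group means removed. With a mean of at least 50 counts Rgs16 gives no value.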
